A study of Mus musculus with 6 samples.

Results

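Myc, Cdk6 and Bcl2 are genes of leukaemia growth and survival, and their H3K79me2 was read from 3 of the 18992 peaks that a pooled chromatin immunoprecipitation and sequencing (ChIP-seq) experiment gave for mouse leukaemia cells. Members were the peaks that share at least 1 base with a window of the mouse build mm9 around each gene: 61814000 to 61824000 on chromosome 15 for Myc, 3340000 to 3525000 on chromosome 5 for Cdk6, and 108432000 to 108613000 on chromosome 1 for Bcl2. Each window held exactly 1 peak, and the nearest peak on each side was added as context. The windows follow the genes and use no peak value, but the genes were chosen with earlier results of these data known.

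The cells were blasts of myeloid leukaemias that arose after transplantation of CMP cells transformed with MN1 (meningioma-1), sorted from the bone marrow of moribund C57BL/6 mice. All were Dot1l f/f, a conditional genotype left without inactivation, so Dot1l was functional in the immunoprecipitated and the input cells alike, and all were cultured for a short time with FBS, Il3, Il6 and SCF. There were 3 H3K79me2 libraries, made with an Abcam antibody, and 3 input libraries without antibody, which came from cells of the same description. The labels give no age and leave it unstated whether separate mice gave the numbered libraries, and the cells had passed through a host and a culture. Cells without MN1 or without DOT1L were not analysed here. The deposited list pools the libraries and names no genes, so no value has a spread between replicates, no test between samples was possible, and the identity of the blasts could not be checked against marker genes.

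H3K79me2 is the dimethyl mark that DOT1L, the only known enzyme for this residue, places on the core of nucleosomes behind RNA polymerase II, and it is known to spread from the start of a transcribed gene into its body. In leukaemias with MLL fusions, DOT1L recruited to target genes is known to give them unusually wide domains of the mark. Myc is a transcription factor that binds DNA with its partner Max and drives growth and division. Cdk6 pairs with D-type cyclins and phosphorylates the retinoblastoma protein at entry into the cell cycle. Bcl2 sits on the mitochondrial membrane and blocks apoptosis by holding pro-apoptotic relatives.

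All 3 genes lay under H3K79me2 with a fold above the list's median, in different shapes. Myc carried a short region with a high fold, while at Cdk6 and Bcl2 the whole window, or nearly so, lay under 1 region, which ranked 13 and 23 of 18992 by width. The fold was taken here as the authors' ratio of pooled H3K79me2 pileup to control background. It was 10.87 at Myc, 9.95 at Cdk6 and 7.19 at Bcl2, against a median of 2.28 over the list. All 3 peaks had a fold of at least 4, as did 29.3% of all peaks, and 2 of the 3 were at least 100 kb wide, against 0.811% of all peaks. With 3 members these shares only describe the loci.

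**Figure D1:**
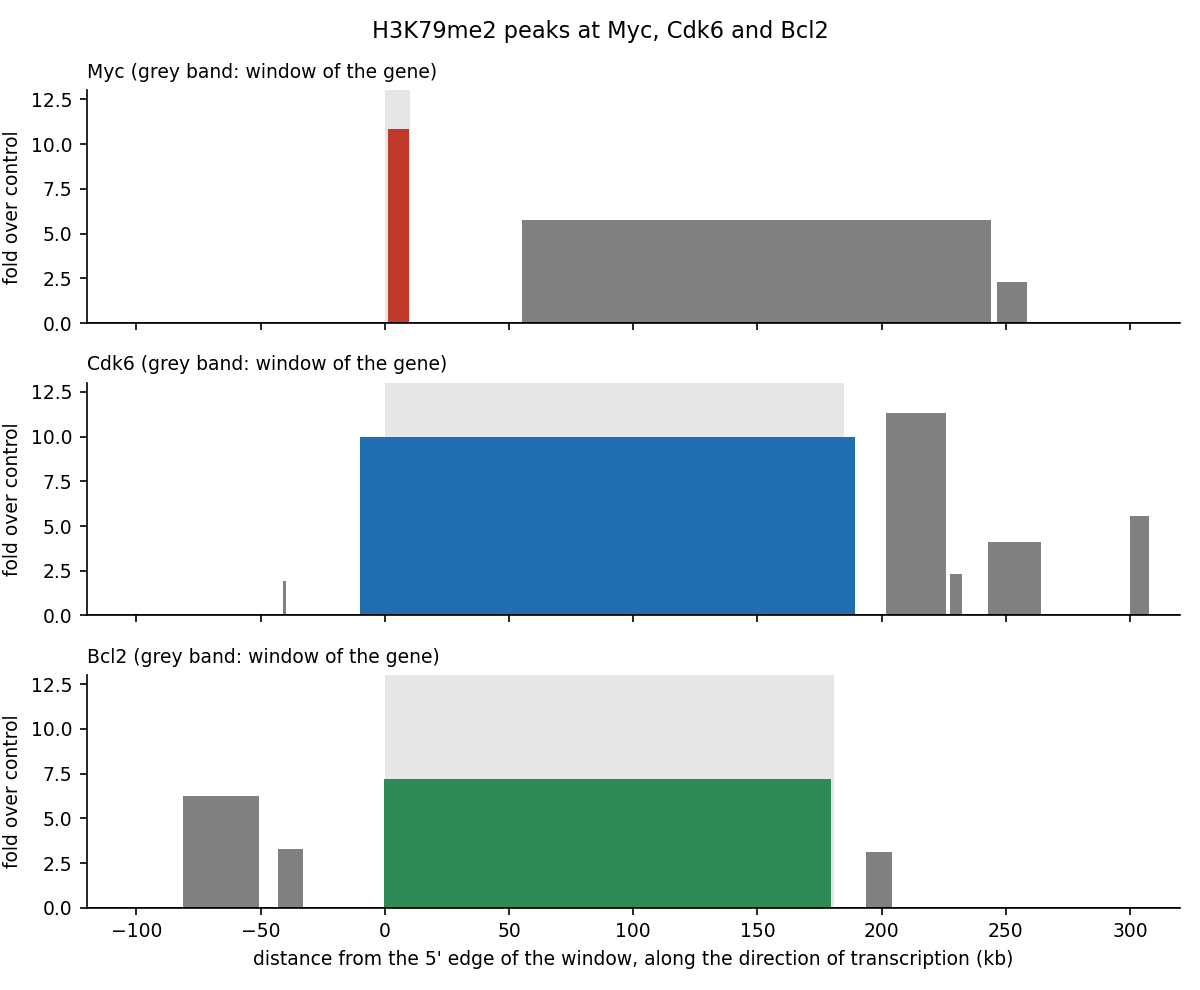
Peaks along the direction of transcription, in kb from the 5′ edge of each gene's window (grey band), with bar width equal to peak width and bar height equal to the authors' fold over control; very narrow peaks are drawn wider to be visible. The coloured bar is the 1 peak of each window and grey bars are other peaks. Myc lies under a short bar at a fold of 10.87 with a lower, 188.8 kb wide neighbour downstream, whereas Cdk6 and Bcl2 lie under bars of 199.3 and 179.9 kb.

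At Myc, H3K79me2 covered 84.4% of the window. The peak ran from 61815234 to 61823677 on chromosome 15 and was 8.44 kb wide, with a pooled pileup of 139.0, a 10.87-fold enrichment and a −log10 q of 103.2. By fold it ranked 196 of 18992 in the list and 7 of the 755 peaks of its chromosome. Its width was ordinary, ranking 6630. The bare part of the window was 1234 bp on the 5′ side and 323 bp on the 3′ side, so the peak ended within the window on both sides. No further peak touched the window.

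Among peaks of like width, from 0.5 to 2 times its own, the Myc peak stood near the top. There were 5891 such peaks, with a median fold of 3.36 and quartiles of 2.20 and 5.33, and 99.2% of them had a lower fold than Myc. In the whole list, 174 other peaks were at least as wide and at least as strong. Coverage was set against tiles of the genome rather than against peaks, so its standing and that by fold are not comparable. Of 263327 consecutive tiles of the window's length, 13.2% held any covered base and 5.60% were covered at least as fully as the Myc window.

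Upstream of Myc there was a long stretch without peaks. The nearest peak on that side lay 1.157 Mb from the Myc peak, from 60649603 to 60657946, and measured 8.34 kb at a fold of 7.09. Only 4.78% of peaks had a longer gap on their emptier side. Downstream the next peak began after 45.4 kb. It ran from 61869074 to 62057907, was 188.8 kb wide, which ranked 18 of 18992, and had a fold of 5.74 with a pileup of 68.2. Its fold was 0.528 times that of Myc, and it was wider than the Bcl2 peak. In the gene order of the RefSeq table, the gene after Myc is Pvt1, a long non-coding RNA known for its place beside Myc and for its amplification with it in cancers. Whether this peak follows the limits of Pvt1 was not tested, because the table is of another build (GRCm38.p6).

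Further downstream of Myc the list was empty again and then held a chain of weaker peaks. Between 0.5 and 1.5 Mb from the window there was no peak, and between 1.5 and 2 Mb there were 14. Of these, 13 formed a chain with gaps of at most 11.1 kb, from 63425519 to 63555102, that began 1.602 Mb from the window and spanned 129.6 kb. Such gaps are common, as the median gap between peaks of the list was 9.01 kb. The chain was picked out after its values were seen, and its count depends on how peaks are joined: merging across 3 kb closes 9 of its 12 gaps and leaves 4 regions, and takes the count within 2 Mb of Myc from 17 to 7. Its peaks were 0.413 to 18.9 kb wide and covered 73.1% of the span. Folds ran from 1.85 to 4.11 with a median of 2.28, close to the median of the list. A fold of 4 was reached by 2 of the 13, against 29.3% of all peaks. The fold at Myc was 2.65 times the highest of the chain. Blood stem cells and myeloid leukaemias are known to use an enhancer cluster far downstream of Myc, beyond Pvt1. Whether these peaks lie on it was not tested, since the list names no features. The last of the 14, from 63766064 to 63892929, measured 126.9 kb and had a fold of 9.07.

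**Figure D2:**
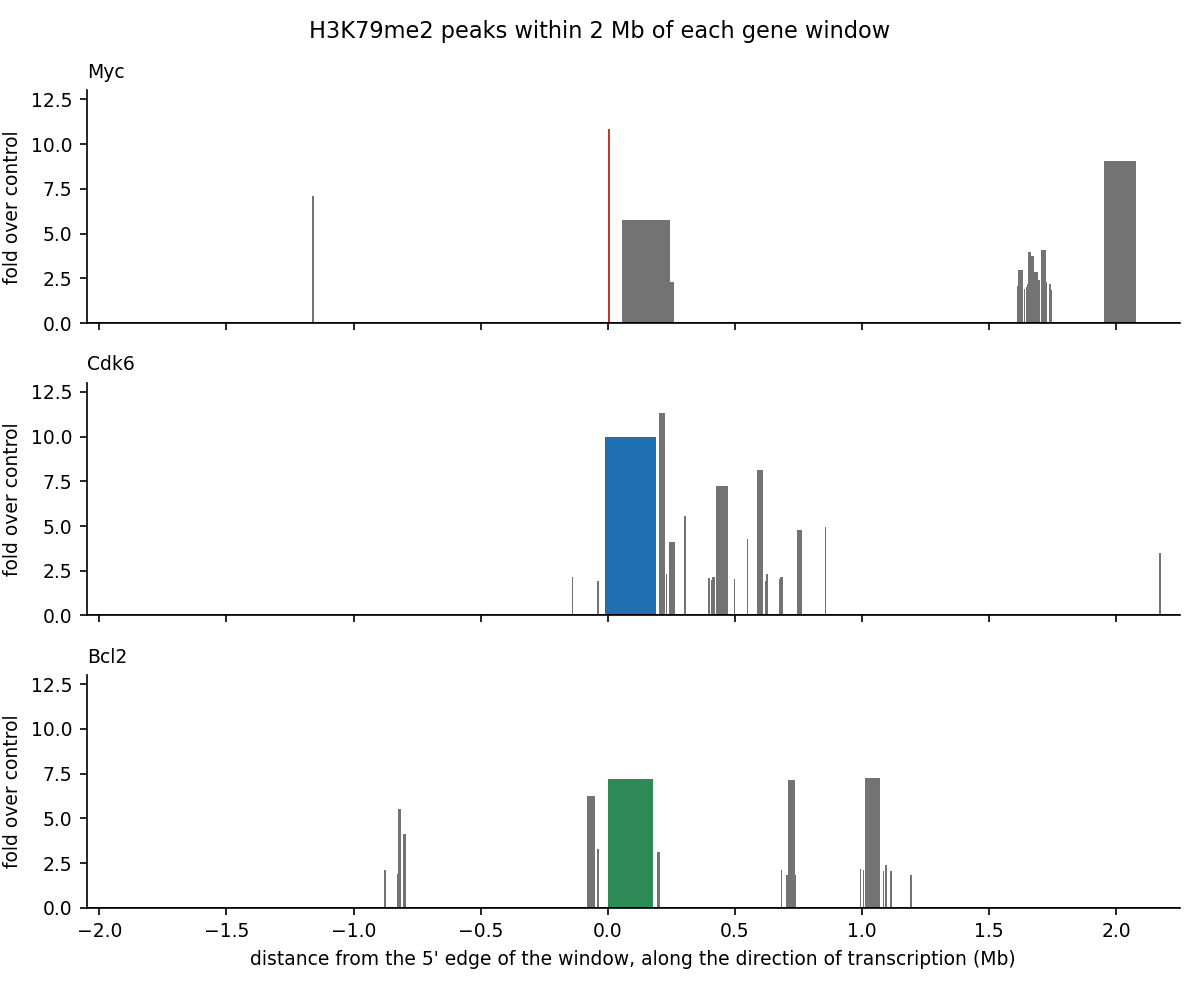
All peaks within 2 Mb of each window, in Mb from the window's 5′ edge along the direction of transcription, with bar height equal to the authors' fold; very narrow peaks are drawn wider to be visible. The coloured bar is the peak of the gene itself. Myc has 1 peak upstream and 16 downstream, of which 13 form the chain between 1.602 and 1.731 Mb from the window (4 regions if peaks are merged across 3 kb). The stretch far upstream of Cdk6 lies in the assembly gap at the start of its chromosome.

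At Cdk6, H3K79me2 covered the whole 185.0 kb window without a break. The peak ran from 3329870 to 3529130 on chromosome 5 and was 199.3 kb wide, with a pileup of 127.5, a 9.95-fold enrichment and a −log10 q of 87.9. It passed the window by 10.1 kb on the 5′ side and by 4.13 kb on the 3′ side. On its chromosome, 2 of the 1166 peaks were wider. The peak was 45.1 times as wide as the median peak and held 0.0895% of all covered bases.

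Width and strength met at Cdk6. The Cdk6 peak ranked 13 by width, and of the few wider peaks 2 were at least as strong. Their folds were 12.02 (chromosome 5, 136792526 to 137045631) and 11.3 (chromosome 6, 133982004 to 134217881). Of the 154 peaks of like width, 89.6% had a lower fold, and their median fold was 6.27 with quartiles of 4.54 and 8.15. Taking width times pileup as a measure of the total mark in a peak, Cdk6 ranked 7 of 18992 and held 0.166% of the list's sum. This product takes the pileup as a mean over the peak, which the sources used here do not state. A tile of the window's length held any covered base in 38.7% of 14247 cases and was fully covered in 7 cases, or 0.0491%. The tiles lie on a fixed grid, which splits most regions near their length between neighbouring tiles and so lowers this share.

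Beyond its 3′ end, Cdk6 was followed at short distance by a stronger peak. After a gap of 12.8 kb came a peak of 24.2 kb, from 3541903 to 3566064, with a pileup of 152.8, an 11.3-fold enrichment and a −log10 q of 120.2, whose fold was 1.13 times that of Cdk6 and ranked 150 in the list. In RefSeq gene order the next gene is Fam133b. Within 0.5 Mb downstream there were 15 peaks, of which 6 had a fold of at least 4, against 29.3% of all peaks. Peaks covered 34.3% of that stretch, against a mean of 8.44% over tiles of the Cdk6 window's length. The nearest upstream peak, 29.8 kb from the Cdk6 peak, was 1.06 kb wide with a fold of 1.92, and 1 further peak, with a fold of 2.13, lay before it. That peak, at 3197372, is the first of chromosome 5 in the list. Mouse chromosomes begin with a long assembly gap in which no read can be placed, so only a short stretch upstream of Cdk6 could hold peaks and its 2 sides cannot be compared over the full reach.

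At Bcl2, which is transcribed towards lower coordinates, H3K79me2 covered 99.2% of the 181.0 kb window. The peak ran from 108433516 to 108613449 on chromosome 1 and was 179.9 kb wide, with a pileup of 92.8, a 7.19-fold enrichment and a −log10 q of 51.5. It passed the 5′ edge of the window by 449 bp and ended 1516 bp inside its 3′ edge, so its limits lay close to those of the window. Of the 1185 peaks of chromosome 1, 1 was wider.

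Within the list, the Bcl2 region was set apart by its width more than by its strength, though genes of like length were not compared. By fold it ranked 1825 of 18992, and 9.60% of peaks had a higher fold. Among the 223 peaks of like width it was near the middle: 62.3% had a lower fold and 83 had a higher one, with a median of 6.37 and quartiles of 4.55 and 8.25. The list held 23 peaks at least as wide, Bcl2 included. Of the others, 7 were at least as strong, 1 of them the Cdk6 peak. By width times pileup it ranked 17. Of 14562 tiles of its window's length, 38.4% held any covered base and 5, or 0.0343%, were covered at least as fully. As at Cdk6, the fixed grid of tiles lowers this share.

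**Figure D3:**
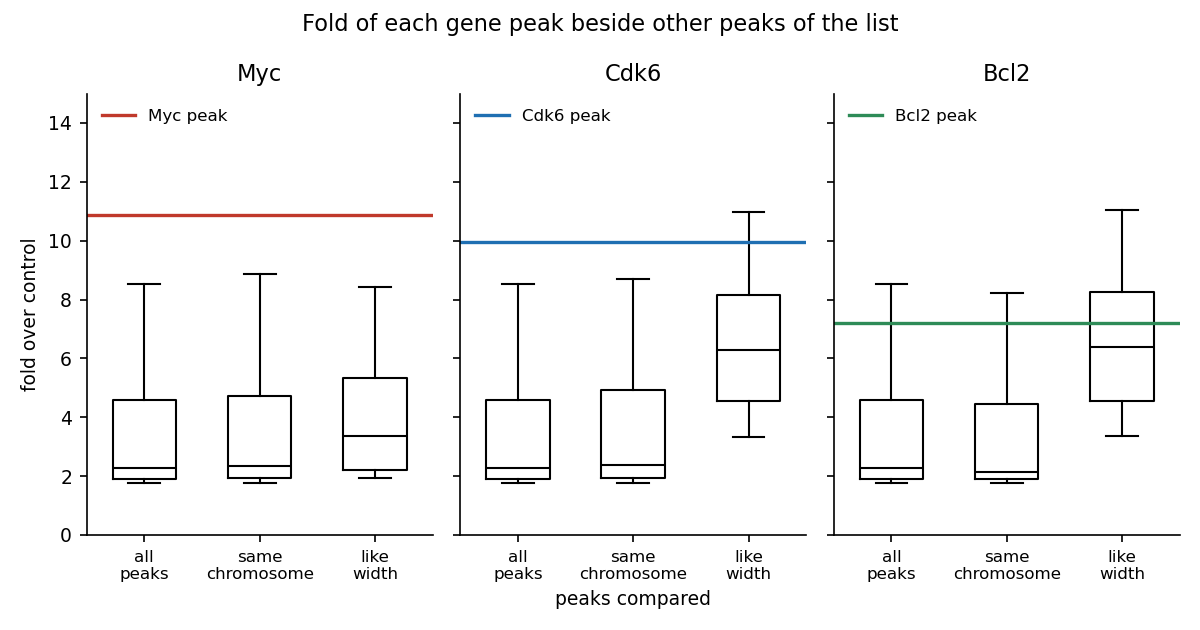
The authors' fold of each gene's peak (coloured line) beside the folds of all peaks, of the peaks on the same chromosome and of the peaks from 0.5 to 2 times its width; boxes give the median and quartiles and whiskers the 5th and 95th percentiles. Myc lies above the whisker of peaks of like width, Cdk6 between the upper quartile of 8.15 and the whisker, and Bcl2 between the median of 6.37 and the upper quartile of 8.25.

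The nearest peaks on the 2 sides of Bcl2 were weaker and of nearly equal size, but the flanks differed further out. On the 5′ side, 32.3 kb away, a peak from 108645774 to 108656047 measured 10.3 kb, at a fold of 3.28 and a pileup of 42.4. On the 3′ side, 14.4 kb away, a peak from 108408884 to 108419151 also measured 10.3 kb, at a fold of 3.12 and a pileup of 41.4. The fold at Bcl2 was 2.19 and 2.30 times theirs. The protein-coding neighbours in RefSeq gene order are Kdsr, an enzyme of sphingolipid synthesis, before Bcl2 and Phlpp1, a phosphatase that acts on AKT, after it. Within 2 Mb there were 19 peaks, 13 on the 3′ side and 6 on the 5′ side. A fold of at least 4 was reached by 2 of the 13 and by 3 of the 6, against 29.3% of all peaks. The median fold was 2.09 on the 3′ side and 3.70 on the 5′ side. Merging peaks across 3 kb left 15 within 2 Mb. Phlpp1 and the other genes in that stretch could not be set against single peaks, for want of an annotation of the build.

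The promoters of Cdk6 and Bcl2 are shown because, taking the windows to hold the gene starts, both lie in sequence that the mark covered without a break: the Cdk6 peak holds its whole window, and the Bcl2 peak runs over the 5′ edge of its own. Of the 3 members, 2 matched an entry of the RefSeq promoter table (GRCm38.p6). The 250 bases before the annotated start are printed 5′ to 3′ on the strand of the gene, chr5:3343643-3343892 on the plus strand and chr1:106714291-106714540 on the minus strand, positions that are not on the scale of the mm9 peaks. Capitals mark matches, on either strand, to the E-box CACGTG, which Myc and Max are known to bind, the GC box GGGCGG, the TATA motif TATAAA and the motif CCAAT.
Cdk6: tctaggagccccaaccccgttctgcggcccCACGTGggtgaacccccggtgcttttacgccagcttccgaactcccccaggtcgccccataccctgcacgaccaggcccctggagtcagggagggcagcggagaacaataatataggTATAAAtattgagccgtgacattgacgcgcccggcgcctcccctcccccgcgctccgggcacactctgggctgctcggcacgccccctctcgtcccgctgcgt
Bcl2: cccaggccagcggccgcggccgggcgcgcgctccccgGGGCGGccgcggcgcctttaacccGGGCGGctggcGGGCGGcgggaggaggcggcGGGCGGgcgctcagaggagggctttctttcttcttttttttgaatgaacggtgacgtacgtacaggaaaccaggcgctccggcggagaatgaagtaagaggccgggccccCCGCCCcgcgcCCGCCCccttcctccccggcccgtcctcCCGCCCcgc

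The promoter sequences differed in composition and motifs. The Cdk6 stretch was 66.0% G and C with 22 CpG dinucleotides, more than in 85.2% of the 32851 promoters of the table. It held 1 CACGTG, from 220 to 215 bases before the start, and 1 TATAAA, from 103 to 98 bases before the start. It held no GGGCGG. The Bcl2 stretch was 74.8% G and C with 36 CpG, more than in 97.4% of the 32851 promoters of the table, and held 7 GGGCGG, 4 on the strand of the gene and 3 on the other, with no overlap between matches. It held no CACGTG and no TATAAA, and neither stretch held CCAAT. Over all promoters of the table, 6.02% held CACGTG, 32.7% GGGCGG, 12.4% TATAAA and 33.8% CCAAT. These are matches of letters and do not show binding.

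Among the 3 genes the order of folds was that of pileups. The fold of Myc was 1.09 times that of Cdk6 and 1.51 times that of Bcl2, and the pileup ratios were 1.09 and 1.498. The control background was computed as (pileup + 1) / fold − 1, on the assumption that the caller adds 1 to both. It was 11.88 at Myc, 11.91 at Cdk6 and 12.05 at Bcl2, above the list's median of 11.20 and upper quartile of 11.74. The background at Myc was 0.986 times that at Bcl2. It varied little over the middle of the list, with a lower quartile of 10.72, although the highest value was 167.5. Nearly level values are therefore not particular to these 3 loci. Without replicates, whether Myc and Cdk6 differ beyond error cannot be told. Pileups and folds may also be means over a peak, and a mean over 8.44 kb and a mean over 199.3 kb weigh different parts of a gene.

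The order by width was different. Cdk6 was 23.6 times and Bcl2 21.3 times as wide as Myc, which follows the sizes of the windows, and the widths of Cdk6 and Bcl2 differed by a factor of 1.11. The 23 peaks at least as wide as Bcl2 had folds from 3.33 to 12.02 with a median of 5.78. Cdk6 and Bcl2 both lay above that median. The setting by which the caller joins neighbouring stretches into 1 peak bears on these widths and was not known here.

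**Figure D4:**
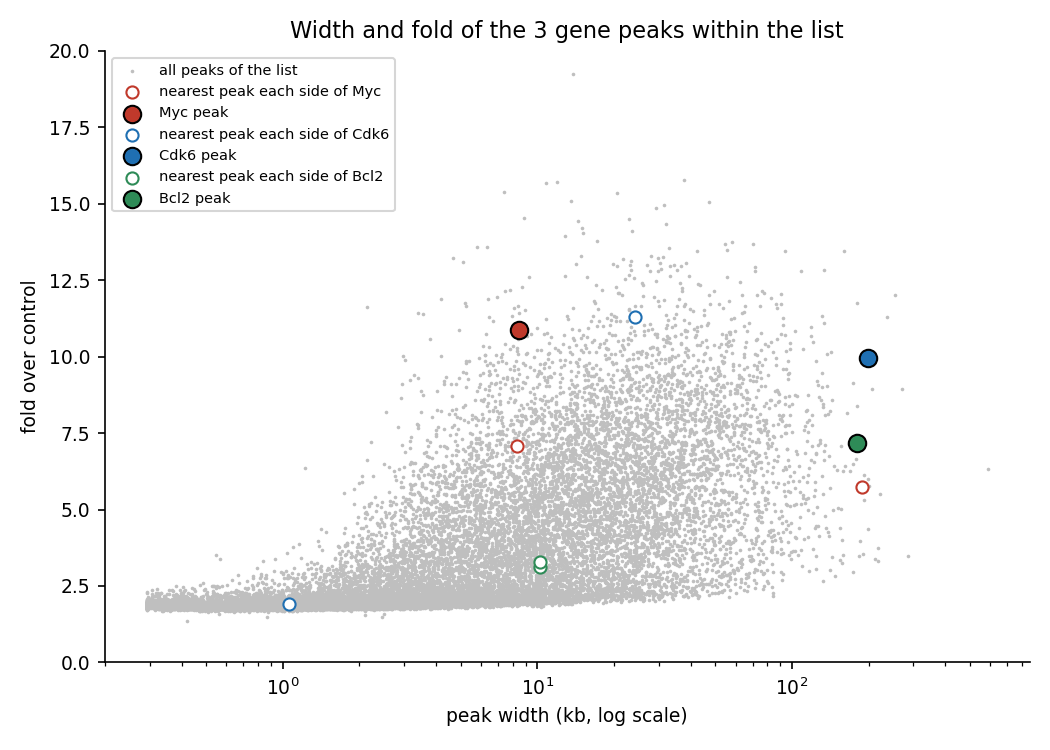
Width (kb, log scale) and the authors' fold over control of all 18992 peaks (small grey points), with the peaks of Myc, Cdk6 and Bcl2 (filled circles) and the nearest peak on each side (open circles). Myc, at 8.44 kb, has the highest fold of the 3, and Cdk6 and Bcl2 lie at the right edge of the cloud at 199.3 and 179.9 kb.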

How the data were processed

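H3K79me2 was mapped in 3 immunoprecipitated and 3 input libraries of MN1-driven leukaemia cells, grouped by their titles. The build was mm9, and the submitters' processing notes name MACS2, bedtools 2.25.0, SAMtools, GSNAP and CASAVA 1.8.2, with settings not given in the sources used here. Columns of the table hold, per the file headers, the pileup (a coverage signal) of the combined libraries, its fold enrichment (a ratio to the control background) and −log10 values of p and q, all written by the authors' peak caller. These values are the authors' and were used only to describe and rank peaks within this list. The −log10 p was not used. Read totals are not given, so depth is known only through pileups of 19 to 280.6.

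The gene windows, lists and comparisons were chosen with earlier results of these data known. Peaks sharing at least 1 base with a window, and the nearest on each side, were named by rule. Strand came from the RefSeq promoter table for Cdk6 and Bcl2 and from general knowledge for Myc. Coverage was compared with consecutive tiles of equal length from position 1 to the last peak of each chromosome, gaps in the assembly included. The windows follow the genes and the tiles do not, so a tile is less likely to be filled by a region near its length. No annotation of mm9 was used, so the planned lists of related genes and of cell type markers were not evaluated. Coverage, ranks and merging were tested on simulated data. The software was pandas 2.3.3, numpy 2.4.6, scipy 1.17.1 and matplotlib 3.10.9 under Python 3.11.15. Alternatives changed thresholds, window edges, merging, overlap and the peaks or tiles compared.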

Additional observations from a re-analysis of the deposited data

How the results depend on the processing

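No paired analysis was possible because there is 1 pooled value per peak, and no replicate could be left out. Each window held 1 peak under all 18 alternatives for that count. The cut-offs and the merging could not alter this count or the coverage. The 3 peaks had −log10 q of at least 51.5 and folds of at least 7.19, and no neighbour lay nearer than 12.8 kb. Coverage was the same under 13 of 18. Narrowing the windows by 2 kb a side raised it to 100% at Myc and Bcl2, and widening by 10 kb gave 28.1% at Myc, 97.1% at Cdk6 and 89.5% at Bcl2. The share of peaks with a lower fold, 98.97%, 97.96% and 90.4% at Myc, Cdk6 and Bcl2, was 99.2%, 89.6% and 62.3% among peaks of like width and 97.2%, 94.4% and 73.6% among peaks with −log10 q of at least 10. On the same chromosome it was 97.6% at Cdk6 and 91.5% at Bcl2. Ranked by pileup it was 98.8% at Myc and 90.8% at Bcl2, by −log10 q 97.5% at Cdk6 and 89.6% at Bcl2, and by width times pileup 81.9%, 99.96% and 99.91%. The share of tiles covered less than the window, 94.4%, 99.95% and 99.97%, was 57.7%, 99.87% and 99.91% among tiles with a covered base, and on the same chromosome 93.9%, 99.88% and 100%. Of 17, 21 and 19 peaks within 2 Mb, 5, 8 and 5 had a fold of at least 4, against 29.3% of all peaks. At Myc, 2 lay within 1 Mb, and merging across 3 kb left 7. Widening, merging within 2 Mb and the product of width and pileup were chosen after seeing the data. The causes of these shifts were not tested. The list ends at a pileup of 19 and a −log10 q of 1.02, and what sets these limits was not tested, so weaker marking cannot be judged.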
